A study of Xenopus tropicalis with 26 samples.

Results

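This section describes 81 transcribed features of Xenopus tropicalis, the western clawed frog, that were read in adult frogs and hardly at all in early embryos. They were chosen from 27836 features by levels in libraries of whole transcriptome target sequencing (WTTS), a method that fragments RNA and keeps the polyadenylated pieces, so that reads come from the 3' ends of transcripts. Levels are given in CPM, the usual unit in which the count of a feature is scaled to the total count of its library. A feature was taken where the mean of both families was at most 1 CPM at each of the 5 embryo stages, 6, 8, 11, 15 and 28, where the mean P of adult pool trials 6 and 7 was at least 20 CPM, and where the mean F of the adult female's libraries lay within 4 times P in either direction. The 81 features are all that met these limits, so an upper limit of 300 features did not come into play. These WTTS values chose the features and are given below as a description without a test. RNA-seq libraries and adult trials 1 to 5 played no role in the choice.

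All libraries come from whole bodies or whole embryos without any stated treatment. The adult pool was RNA of 3 male and 3 female frogs, used in 7 WTTS trials during development of the method and in 1 RNA-seq library. The female group is a single frog with 2 technical repeats by the final protocol, and the 10 embryo WTTS libraries are pools of embryos of 2 families at 5 stages, of which the pools of stages 6, 8 and 11 also gave 6 RNA-seq libraries. Ages, strains and parents of the frogs are not given in the labels, and neither are the changes made between trials. Trials and female repeats share their RNA, so their spread is technical, and the only biological replicates are the families. In whole bodies, fewer cells of a type and less RNA per cell cannot be told apart.

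A frog embryo starts with RNA laid down in the egg, and its own genome becomes broadly active around the midblastula transition, between stages 8 and 11 of this series. Organs such as liver, pancreas, gut and lung differentiate later, and blood, skin and muscle exchange some larval proteins for adult ones at metamorphosis. Genes that serve only differentiated adult organs are therefore known to be silent in early embryos. The files do not pair the XLOC identifiers with gene names, and none of them matched the gene table at hand, so each feature goes by its identifier and deposited coordinates, no role is assigned to any of them, and the tissues could not be checked against marker genes.

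The libraries differed widely in depth. Adult WTTS libraries held 8364595 to 42424000 counts, the adult RNA-seq library 73522777, embryo WTTS libraries 1536128 to 6276132 and embryo RNA-seq libraries 110710673 to 131001449. A count of 3 therefore stands for 0.478 to 1.95 CPM in embryo WTTS but 0.0229 to 0.0271 CPM in embryo RNA-seq. Trials 2, 3 and 4 stood apart before any result, since their 10 largest features took 72.1%, 66.3% and 47.9% of all counts, against 3.29% to 17.4% in the other adult libraries.

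Of the 6743 features with P of at least 20 CPM, 124 were at most 1 CPM at all embryo stages. In 43 of these F was below the window around P, in none above it, and the remaining 81 are described here. Features just inside the limit on P were XLOC_010818 at 20.1 CPM and XLOC_027591 at 21.3 CPM, and just outside lay XLOC_015441 at 19.2 and XLOC_022340 at 19.1 CPM. At the embryo limit, XLOC_006652 and XLOC_005346 reached 0.991 CPM at stage 8, while XLOC_023118 at 1.00 CPM at stage 8 and XLOC_020498 at 1.02 CPM at stage 11 fell outside. At the lower limit on the female, XLOC_019836 had a ratio F/P of 0.253 and XLOC_009045 of 0.259, against 0.248 for XLOC_021570 and 0.245 for XLOC_026452 outside. No feature lay near the upper limit, where the highest ratios inside were 2.48 for XLOC_005346 and 1.47 for XLOC_012512.

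**Figure D1:**
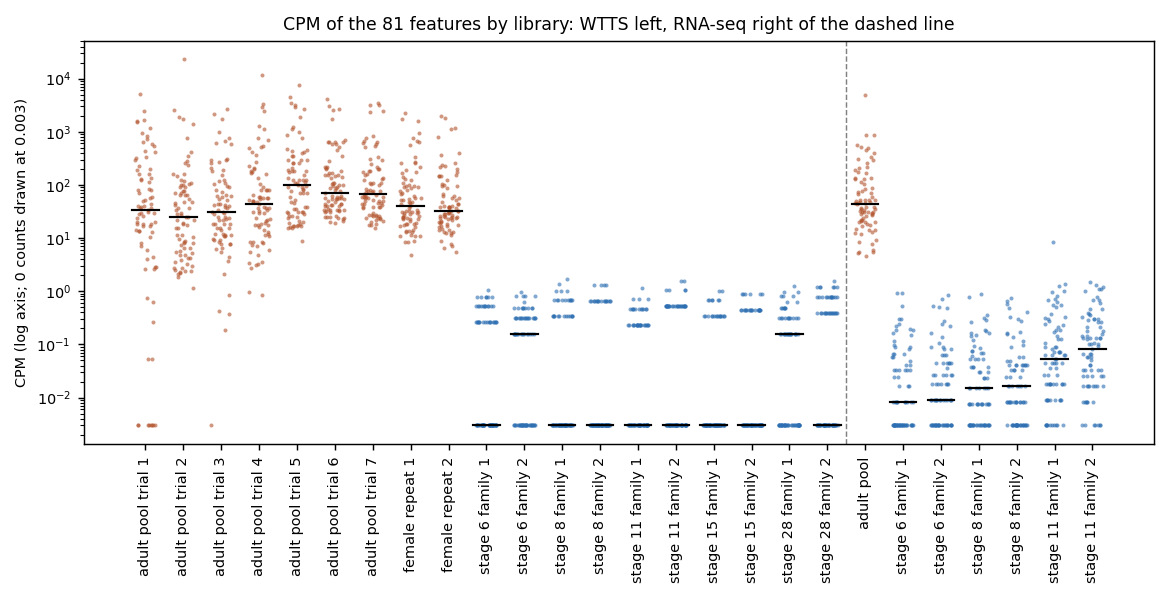
Level of each of the 81 features in each of the 26 libraries in CPM on a log axis, with WTTS left and RNA-seq right of the dashed line. Points are features (adult orange, embryo blue, 0 counts drawn at 0.003), and black bars are medians. All adult medians lie between 25.2 and 100.2 CPM, and no embryo median is above 0.159 CPM.

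The features covered a wide range of adult levels. P ran from 20.1 to 3795 CPM with a median of 68.2, 31 features had at least 100 CPM and 28 less than 50. Together they took 2.50% of all counts of trial 6 and 2.54% of trial 7. The 8 with the highest P made up 65.1% of the summed P.

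XLOC_026109, on scaffold_9 from 60116684 to 60118391, plus strand, was the highest. It had 4058 and 3533 CPM in trials 6 and 7, 2286 and 1933 CPM in the female repeats and 4926 CPM in the adult RNA-seq library. Its embryo RNA-seq values were 0.0818 and 0.0271 CPM at stage 6, 0.0840 and 0.0578 at stage 8 and 0.550 and 0.684 at stage 11. The adult RNA-seq level was 20272 times that of the pooled embryo RNA-seq counts, with an exact 95% interval from 17474 to 23657. All intervals given here cover counting error only.

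XLOC_019836, on scaffold_6340 from 197 to 3356, minus strand, had 2664 and 3112 CPM in trials 6 and 7, 675 and 787 in the female repeats and 504 in adult RNA-seq. It was the feature with the lowest F/P among the 81. XLOC_020747, on scaffold_7 from 71839969 to 71844213, plus strand, had 1749 and 2310 CPM in the trials, 1608 and 1818 in the female and 868 in adult RNA-seq. In this feature the female and pool values overlapped, unlike in the preceding ones. No embryo RNA-seq library of stages 6 and 8 held a count of it, and those of stage 11 held 8 and 16.

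XLOC_003999, on scaffold_10 from 30964350 to 30966770, plus strand, had 711 and 831 CPM in trials 6 and 7, 331 and 220 in the female and 884 in adult RNA-seq, against 6 counts in all embryo RNA-seq libraries together, all of them at stage 11. That is a ratio of 105551, with an interval from 48494 to 287618. XLOC_023179, on scaffold_8 from 44673841 to 44684767, plus strand, had 634 and 763 CPM in the trials, 761 and 358 in the female and 188 in adult RNA-seq, and 3 embryo RNA-seq counts in all. The other 3 of the leading 8 features, XLOC_019244, XLOC_019245 and XLOC_018316, lie near one another on scaffold_6 and are described next.

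Many of the 81 features lay close to one another on the genome, a property that played no role in their choice. Of the 81, 34 (42.0%) had another of them within 100 kb, forming 14 groups of 2 to 5. Among the other 6662 features with P of at least 20 CPM, 136 (2.04%) had one of the 81 within 100 kb, and among all 27755 other features 467 (1.68%). Scaffold_7 held 14 of the 81, scaffold_2 and scaffold_9 held 13 each and scaffold_10 held 9, whereas scaffold_1, with more annotated features than any other of these scaffolds, held 2. The 81 lay on 17 scaffolds, 44 on the plus and 37 on the minus strand. Whether neighbours are copies of one gene was not tested, since no genome of this build was at hand. Near-identical copies can share reads, so the split of counts within a group is uncertain.

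The largest group spanned 134407 bases of scaffold_6, from 91592068 to 91726474. It held 5 of the 81 among 7 annotated features, and the 5 together reached 6925 CPM in P, 3119 in F and 1292 in adult RNA-seq. XLOC_018315 and XLOC_018316 lie on the plus strand at its left end, and XLOC_019244, XLOC_019245 and XLOC_019246 follow on the minus strand. XLOC_018320, another of the 81, starts further right at 91884672, beyond the distance used for a group.

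XLOC_019244, from 91651189 to 91657178, was the second highest of all 81. It had 3048 and 3148 CPM in trials 6 and 7, 1701 and 1139 CPM in the female repeats and 406 CPM in adult RNA-seq. Embryo RNA-seq libraries held 6 counts of it in all, with at most 2 in any library, and embryo WTTS libraries held 6 counts. XLOC_019245, from 91678931 to 91688371, had 2505 and 2433 CPM in the trials, 963 and 1160 in the female and 564 in adult RNA-seq, and 12 embryo RNA-seq counts. Both were lower in each female repeat than in either trial.

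XLOC_018316, from 91607668 to 91612569, had 643 and 661 CPM in the trials, 254 and 255 in the female and 46.1 in adult RNA-seq. XLOC_018315, from 91592068 to 91597326, had 179 and 185 CPM in the trials and 186 and 176 in the female, so that its levels overlapped. Each had 2 counts in the 6 embryo RNA-seq libraries together. XLOC_019246, from 91711440 to 91726474, had 450 and 598 CPM in the trials, 172 and 230 in the female and 259 in adult RNA-seq. It differed from its neighbours in embryo RNA-seq, with 12 to 41 counts in every library. The remaining 2 features of this stretch, XLOC_018317 at 0 CPM and XLOC_019243 at 2.06 CPM, were far below the limit on P.

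3 further groups held 3 features each. On scaffold_7 from 46124341 to 46341652, XLOC_021678, XLOC_020501 and XLOC_020506 had P of 232, 72.3 and 42.9 CPM and F/P of 0.831, 1.02 and 0.956. All 3 were thus above the median F/P of the 81, which was 0.479. The same stretch holds 8 other features. Of these, XLOC_020498 (P of 113 CPM) missed the embryo limit by its 1.02 CPM at stage 11 in WTTS. XLOC_020497 (P of 71.7 CPM) missed it by 5.25 CPM at stage 8. Their means over the embryo RNA-seq libraries were 0.0283 and 0.0165 CPM, in that order.

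On scaffold_9 from 97483335 to 97521535, XLOC_026639, XLOC_026641 and XLOC_026642 had P of 88.3, 152 and 59.0 CPM and F/P of 0.437, 0.447 and 0.317. The only other feature between them, XLOC_026640, had P of 37.8 CPM and no embryo WTTS count, and was left out because its F/P was 0.203. On scaffold_2 from 100708598 to 100748711, XLOC_006651, XLOC_006652 and XLOC_006655 had P of 87.8, 139 and 52.3 CPM. They flank XLOC_006654, which had a mean of 81.8 CPM in embryo RNA-seq, against 0.0804, 0.00979 and 0.00415 CPM for the 3.

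The 81 features spanned shorter stretches of genome than other features above the same lower limit on P, which were not matched to them by level. Their median span, introns included, was 5990 bases, with a range from 710 to 34941, against 19695 for the other 6662 features with P of at least 20 CPM and 10820 for all features. Of the 81, 72.8% spanned less than 10 kb, against 25.1% of the other features with that P. A feature on the other strand overlapped 11 of the 81 (13.6%), against 19.1% of all features, and without knowledge of strand in counting, reads of such partners cannot be told apart. Among the named features this concerns XLOC_024565, XLOC_021229, XLOC_024497, XLOC_009045, XLOC_007521 and XLOC_012512.

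The adult RNA-seq library, from the same RNA pool as the trials, gave a view of these features by a method that reads along the whole transcript. All 81 had at least 1 CPM in it, and 80 at least 5 CPM. At least 1 CPM was reached by 59.4% of all features and by 99.8% of the other features with P of at least 20 CPM, so the share is near that of other adult features. Levels ran from 4.502 to 4926 CPM with a median of 42.8. The Spearman correlation of P and the RNA-seq level was 0.599 over the 81 features, and 0.599 over the other 6662. Both measures come from 1 RNA pool.

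**Figure D2:**
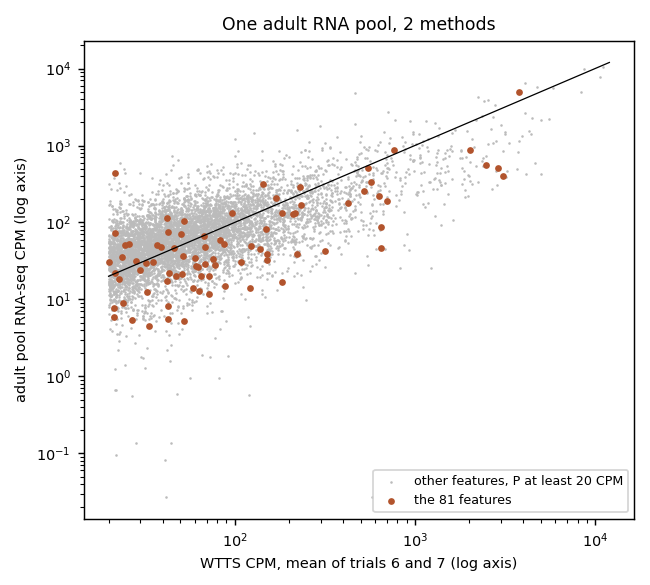
Adult RNA-seq CPM against P, the mean WTTS CPM of trials 6 and 7, both on log axes, for the 81 features (orange) and the other 6662 features with P of at least 20 CPM (grey), with the line of equality. Of the 81, 60 lie below the line, and XLOC_019700 stands far above it at the left.

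Most of the 81 took a smaller share of RNA-seq than of WTTS reads. The ratio of RNA-seq CPM to P had a median of 0.444, against 1.08 for the other features with that P, and was below 1 in 60 of the 81 (74.1%) against 45.6%. The median was 0.526 for the 16 features under 3 kb, 0.428 for the 43 of 3 to 10 kb and 0.466 for the 22 of at least 10 kb. These spans include introns, and the other features had a longer median span, 19695 against 5990 bases. Transcript length was not measured, and its part in the lower ratio was not tested. The lowest ratios were 0.0708 for XLOC_018316 and 0.0911 for XLOC_018315, the neighbours on scaffold_6, then 0.1003 for XLOC_013141, on scaffold_4 from 84775127 to 84782331, and 0.117 for XLOC_024497, on scaffold_8 from 55741460 to 55751116.

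The highest ratio, 20.4, was that of XLOC_019700, on scaffold_601 from 2200 to 3561, plus strand. It had 19.2 and 24.2 CPM in trials 6 and 7, 8.59 and 6.60 in the female and 444 CPM in adult RNA-seq. No embryo WTTS library held a count of it, and embryo RNA-seq libraries held 1 to 7. XLOC_014894 followed with 3.35, XLOC_026585 with 2.76 and XLOC_013191 with 2.18. Each ratio rests on a single RNA-seq library without a replicate check.

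The adult RNA-seq level also stood above all embryo RNA-seq libraries. In 80 of the 81 features it was at least 4 times the highest of the 6 embryo libraries, against 20.9% of all features and 11.8% of the other features with P of at least 20 CPM. No test was made, as the adult has 1 RNA-seq library, and the embryo pools are those whose WTTS values chose the features. The adult RNA pool is likewise the one whose WTTS level had to reach 20 CPM. Nearly all other features with that P had missed the embryo limit, so these shares support no comparison with them. Embryo RNA-seq covers stages 6, 8 and 11 only, so silence at stages 15 and 28 rests on WTTS alone. The exception was XLOC_007004, at 21.9 CPM in the adult and 8.52 CPM in 1 stage 11 library. At a limit of 10 times, 78 features remained above it, and below it, besides XLOC_007004, were XLOC_027591 at 6.82 times and XLOC_007521 at 8.91 times their highest embryo library.

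Adult trials 1 to 5 measured the same RNA while the method was being developed. Most of the 81 features reached at least 5 CPM in each of them, though their order changed. At least 5 CPM was reached by 62, 63, 73, 73 and 81 of the 81 in trials 1 to 5, against 23.2%, 16.3%, 20.9%, 26.9% and 38.3% of all features. Of the other features with P of at least 20 CPM, 70.1%, 56.8%, 66.7%, 84.1% and 99.5% reached it. Trial 1 held no count of 8 of the 81 and trial 3 of 1 of them. In all 7 trials, 49 features had at least 5 CPM.

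The Spearman correlation with P over the 81 features was 0.640 in trial 1, 0.800 in trial 2, 0.768 in trial 3, 0.777 in trial 4 and 0.864 in trial 5. The median ratio to P was 0.412, 0.260, 0.401, 0.473 and 1.15. In trials 2 to 4 the 10 largest features dominated the library, as given above. With these 10 left out of the total, 80, 76 and 79 of the 81 reached at least 5 CPM in trials 2, 3 and 4. With the full total it was 63, 73 and 73. No share over other features is given for that setting, and the part of the 10 in the ratios to P was not tested. Summed over the 81, the share of counts was 2.22%, 3.57%, 1.43%, 3.04% and 3.97% in trials 1 to 5. A single feature, XLOC_023179, had 23251 CPM in trial 2 and 11835 in trial 4, against 437, 967 and 3121 CPM in trials 1, 3 and 5 and 634 and 763 in trials 6 and 7.

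Single features moved far between trials. XLOC_003751, on scaffold_10 from 10334927 to 10340353, plus strand, had 16.6 CPM in trial 1, 2531 in trial 2, 606 in trial 3, 3356 in trial 4, 3513 in trial 5 and 645 and 651 in trials 6 and 7. Trials 6 and 7 were nearly equal, while the other trials lay on both sides of them. XLOC_006968, a feature of 710 bases on scaffold_2 from 142415875 to 142416584, had 191 CPM in trial 1, 5.82 in trial 2, 0.185 in trial 3, 18.6 in trial 4, 24.4 in trial 5 and 85.6 and 107 in trials 6 and 7. XLOC_025602, on scaffold_9 from 557687 to 561918, had 0 counts in trial 1 and 114 CPM in trial 5, with 28.4, 23.2 and 55.6 CPM in trials 2 to 4 and 30.9 and 43.7 in trials 6 and 7.

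**Figure D3:**
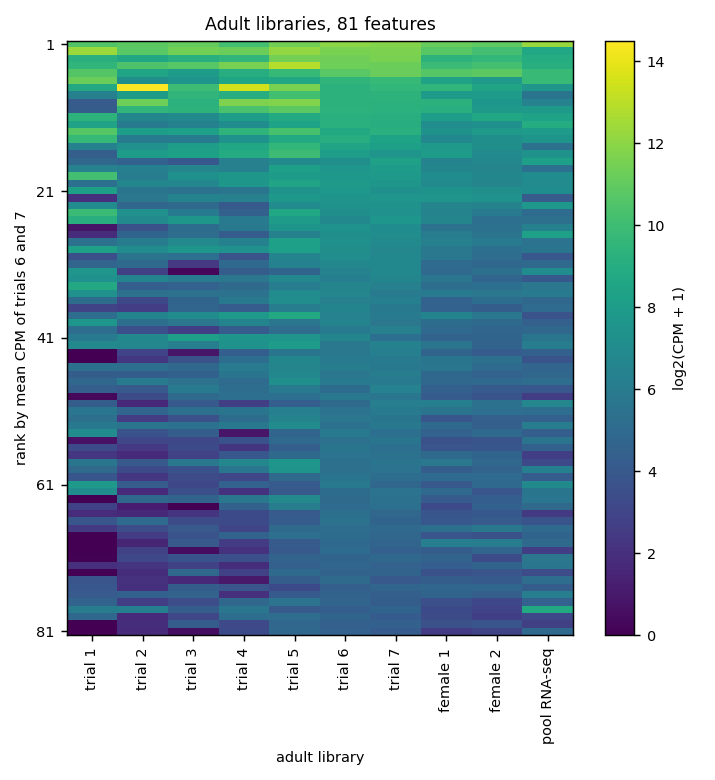
Levels of the 81 features, ordered by P from the highest (1) to the lowest (81), in the 10 adult libraries as log2(CPM + 1). Trials 6 and 7 are alike, trials 1 to 4 hold scattered dark cells among features of lower P, and XLOC_023179 is the brightest cell in trials 2 and 4.

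The female had lower levels than the mixed-sex pool for most of the 81 features. F was below P in 75 of them (92.6%), with a median F/P of 0.479. In 42 features (51.9%) F/P was under 0.5. Among the other 6436 features with P of at least 20 CPM and F in the same window, F was below P in 36.8% and F/P was under 0.5 in 6.54%, with a median of 1.14. These others all missed the embryo limit, with a median embryo RNA-seq mean of 71.5 CPM against 0.0342 for the 81. The part of that limit in the difference was not tested. In 64 of the 81 both female repeats were below both trials, and in 3 both were above. The same count was not made over other features. The values on each side are technical repeats, so these counts support no comparison.

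The rule used these values, so they are a description. The female is 1 frog, and sex, individual and the technical repeats cannot be told apart. Repeats of single features differed as well. The ratio of trial 6 to trial 7 ran from 0.410 to 2.61 with a median of 1.05. That of female repeat 1 to 2 ran from 0.386 to 3.29 with a median of 1.15. Over the other 6662 features with P of at least 20 CPM the median for the trials was 1.03. Over the other 6436 with F in the window, the median for the female repeats was 0.879, on the other side of 1. The lowest ratios F/P were 0.253 for XLOC_019836, 0.259 for XLOC_009045 and 0.265 for XLOC_027420. XLOC_027420, on scaffold_9 from 82740684 to 82747025, had 582 and 519 CPM in the trials and 139 and 154 in the female.

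**Figure D4:**
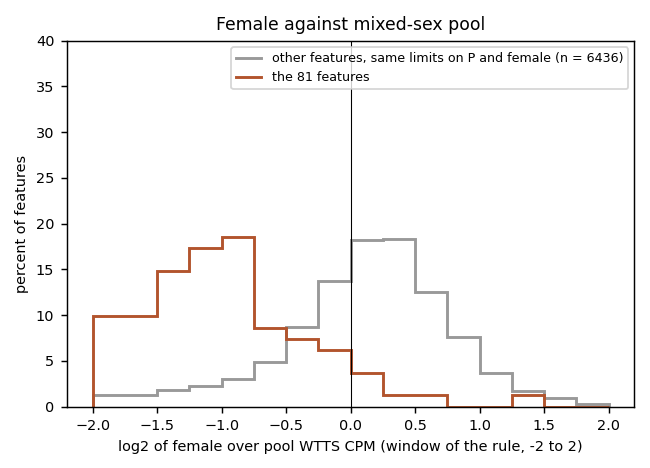
Distribution of the log2 ratio of female to pool WTTS CPM, as percent of features, for the 81 features (orange) and the other 6436 features under the same limits on P and on the female (grey). The window of the rule runs from -2 to 2. The orange line is highest left of 0 and the grey line right of it.

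A few features went the other way. XLOC_005346, on scaffold_1562 from 5399 to 10652, plus strand, had 30.4 and 26.0 CPM in trials 6 and 7 and 71.6 and 68.2 in the female, and was the only one with F/P above 2. In trial 1 it had 0 counts. XLOC_012512, on scaffold_4 from 15646172 to 15664446, had 34.7 and 30.1 CPM in the trials and 39.5 and 55.9 in the female. XLOC_003881, on scaffold_10 from 22389450 to 22394692, had 20.1 and 25.6 CPM against 26.4 and 28.9. In all 3 both female repeats lay above both trials.

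In embryo WTTS the features were at the edge of detection by choice. The 10 libraries held 572 counts of them in all, 11.3 to 25.5 CPM summed over the 81 features in a library, against 24971 and 25407 CPM in trials 6 and 7. In the 10 libraries together 7 features had no count, 16 had 1 to 3 and 58 had more, up to 21. In 24 features a single library exceeded 1 CPM, with 1.70 CPM as the highest value. Features with a count in both families numbered 28, 11, 12, 10 and 27 from the earliest stage to the latest. The deepest of these 10 libraries is one of stage 6, closely followed by one of stage 28. The 40 features with the highest P had 279 of the 572 counts and the other 41 had 293.

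RNA-seq of the same pools, at far greater depth, resolved these low levels. No count fell on 4 features in any of the 6 embryo RNA-seq libraries, 6 had 1 to 3 counts and 71 had more. The mean over the 6 libraries had a median of 0.0342 CPM over the 81 features, against 68.8 CPM for the other features with P of at least 20 CPM. It was above 0.1 CPM in 21 features, and 7 features exceeded 1 CPM in some library.

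The 4 features without a count were XLOC_027204, XLOC_021229, XLOC_026642 and XLOC_020506. XLOC_027204, on scaffold_9 from 59572670 to 59573939, minus strand, had 599.7 and 545 CPM in trials 6 and 7, 264 and 390 in the female and 332 in adult RNA-seq. Against a floor of 3 counts in the embryo RNA-seq libraries together, the adult level was at least 79231-fold higher. XLOC_021229, on scaffold_7 from 121524435 to 121527116, plus strand, had 146 and 158 CPM in the trials and 32.5 in adult RNA-seq, at least 7762-fold higher. It was the only one of the 81 with no count in any of the 16 embryo libraries of both methods. XLOC_026642 and XLOC_020506, of the groups on scaffold_9 and scaffold_7, had 14.1 and 8.32 CPM in adult RNA-seq, at least 3376-fold and 1987-fold higher by the same floor.

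The question put to embryo RNA-seq was whether the features changed as the embryonic genome became active. Summed over the 81 features, the level was 5.60 and 5.53 CPM at stage 6, 5.24 and 5.69 at stage 8 and 22.6 and 17.6 at stage 11. Without XLOC_007004 the sums were 5.48 and 5.46, 5.09 and 5.59, and 14.1 and 16.5 CPM. Both stage 11 RNA-seq libraries therefore lay above the earlier ones with and without it. WTTS of the same pools did not show this rise in both families. Summed over the 81, WTTS gave 16.51 and 17.05 CPM at stage 6, 17.32 and 15.62 at stage 8 and 13.37 and 21.01 at stage 11. Family 1 of stage 11 lay below all 4 earlier libraries and family 2 above them. The WTTS sums rest on 24 to 107 counts in a library, and the difference between methods was not tested. The rule held the WTTS stage means of each feature to at most 1 CPM, stage 11 included. A feature that rose above that limit was left out, so these sums cannot show whether WTTS lacks the rise. In 46 of the 81 (56.8%) both stage 11 RNA-seq libraries were above all 4 earlier ones, against 36.8% of all features. In 3 both were below, against 21.5%. The rule kept WTTS levels of these pools low, and the stage 8 RNA-seq mean had a median of 0.0153 CPM over the 81. That left little room for a fall, so these shares support no comparison with other features.

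Only 31 of the 81 passed the filter on low counts, which asks for about 0.0829 CPM in 2 libraries. Of the 31, 15 would not have passed on the libraries of stages 6 and 8 alone, so that these had to be higher at stage 11. Of the 31, 16 rose between stages 8 and 11 in edgeR's quasi-likelihood test at a Benjamini-Hochberg adjusted p below 0.05, and none fell, against 30.3% higher and 28.2% lower among the 19413 features tested. The 31 were kept partly for being high at stage 11, so these counts support no comparison with other features. Of the 16, 11 passed the filter only through stage 11.

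**Figure D5:**
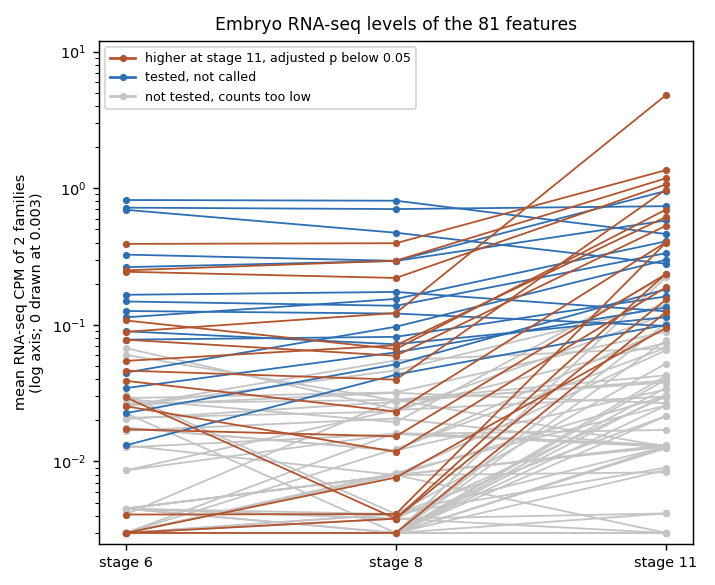
Mean RNA-seq CPM of both families (log axis, 0 drawn at 0.003) at stages 6, 8 and 11, 1 line for each of the 81 features. Orange lines are the 16 features called higher at stage 11 than at stage 8, blue lines were tested and not called, and grey lines had too few counts for the test. XLOC_007004 is the highest orange line at stage 11.

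Levels were low at stage 11 too. The stage 11 means of the 16 ran from 0.0951 to 1.36 CPM, apart from XLOC_007004. XLOC_024565, on scaffold_8 from 62298689 to 62316523, minus strand, went from 0.0655 and 0.0271 CPM at stage 6 and 0.0382 and 0.0413 at stage 8 to 0.956 and 1.00 at stage 11. The log2 change from stage 8 was 4.49 (SE 0.54). Its adult RNA-seq level was 209 CPM.

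XLOC_004355, on scaffold_10 from 22466502 to 22470242, minus strand, had 1 count at stage 8 in both families together and 93 at stage 11, where it reached 0.334 and 0.467 CPM. The ratio was 102 with an exact 95% counting interval from 17.8 to 4055. XLOC_006651, in the group on scaffold_2, likewise went from 1 count to 55, or 0.216 and 0.258 CPM, a ratio of 60.1 with an interval from 10.3 to 2415. In both, the stage 11 libraries stood far above the 4 earlier ones, which held at most 1 count each. Each ratio rests on a single count at stage 8, and both features passed the filter only through stage 11.

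XLOC_019836 went from 0.0382 and 0.00825 CPM at stage 8 to 0.505 and 0.300 at stage 11, a log2 change of 3.94 (SE 0.74). Without family 1 of stage 8 that change was 5.31, and without family 2 it was 3.24. XLOC_026109, the feature with the highest P, was also among the 16, with a log2 change of 3.00 (SE 0.58). All 5 passed the filter only through stage 11, and their p-values are therefore not given. Their log2 changes, SE, ratios and counting intervals carry the same selection, so they describe these features and are no test of a rise. These 5 features and XLOC_007004 span adult levels from P of 43.4 to 3795 CPM. The number called fell from 16 to 10 without family 2 of stage 8, where the lone library is assumed to vary like the other stages.

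XLOC_007004, on scaffold_2 from 144220963 to 144223449, plus strand, had the highest embryo RNA-seq level. It had 0.115 and 0.0632 CPM at stage 6, 0.145 and 0.0990 at stage 8 and 8.52 and 1.10 at stage 11 in families 1 and 2. The families lay close together at stages 6 and 8 and far apart at stage 11. The log2 change from stage 8 was 5.20 (SE 1.05, edgeR adjusted p = 0.00618). The WTTS libraries of the same stage 11 pools held 0 counts of it in either family, and its adult values were 49.1 and 37.7 CPM in trials 6 and 7, 13.24 and 13.999 in the female and 21.9 in RNA-seq.

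The other features highest in embryo RNA-seq were XLOC_005346, XLOC_007521, XLOC_023383 and XLOC_020531. XLOC_005346 had 0.908 and 0.533 CPM at stage 6, 0.763 and 0.644 at stage 8 and 1.02 and 0.458 at stage 11, so the stages overlapped. XLOC_007521, on scaffold_2 from 52212565 to 52217548, had 0.313 and 0.479 CPM at stage 8 and rose to 1.39 and 1.33 at stage 11, a log2 change of 1.68 (SE 0.45, edgeR adjusted p = 0.0189). That call was lost without either library of stage 8 and without family 1 of stage 11. XLOC_020531, on scaffold_7 from 48879558 to 48908699, had 0.260 and 0.330 CPM at stage 8 and rose to 1.28 and 1.08 at stage 11, by a log2 of 1.90 (SE 0.40, edgeR adjusted p = 0.00743), a call lost without family 1 of stage 8.

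XLOC_023383, on scaffold_8 from 60104947 to 60128301, had 0.916 and 0.723 CPM at stage 6, 0.885 and 0.734 at stage 8 and 0.316 and 0.609 at stage 11. Both stage 11 libraries were below the 4 earlier ones. Its log2 change of -0.91 (SE 0.44) did not pass the test (edgeR adjusted p = 0.122). Without family 2 of stage 11 it did, at -1.45 (edgeR adjusted p = 0.0483).

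Between stages 6 and 8 none of the 31 features tested was called by edgeR, and 0 were below 0.05 without adjustment. Neither DESeq2 nor limma-voom called any, and of all 19413 features edgeR called 0% in either direction. Between families, with stage accounted for, edgeR called none of the 31, with 3 at an unadjusted p below 0.05, and DESeq2 called none. Among all features tested, 0.67% were higher and 0.876% lower in family 2 at an edgeR adjusted p below 0.05. The share at an unadjusted p below 0.05 was not taken over all features, for families or for stages 6 and 8. XLOC_009045, on scaffold_26 from 325493 to 341674, plus strand, had the smallest p. It had 0.147, 0.176 and 0.694 CPM at stages 6, 8 and 11 in family 1 and 0.506, 0.413 and 1.22 in family 2, higher in family 2 at each stage, with a log2 difference of 1.25 (SE 0.34, edgeR adjusted p = 0.170). Without either library of stage 11 the adjusted p was 0.00652 or 0.00987. The 3 stages serve as replicates of a family, so this concerns these families only.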

How the data were processed

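The authors deposited raw read counts per feature for 26 libraries, not normalized. Per the labels' protocols, RNA was extracted with Trizol and sequenced on Illumina and Ion Torrent instruments. The following are, for these files, unstated: aligner, counting program, genome build, annotation, use of strand, the origin of positions (0 or 1) and the instrument of each library (not given in the sources used here).

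CPM used column sums. Embryo RNA-seq counts were tested on the whole table with edgeR 4.0.16 in R 4.3.3 (TMM, filterByExpr with its minimum count of 10, quasi-likelihood F-test, stage as factor, Benjamini-Hochberg adjusted p below 0.05). Each SE was obtained from the log2 change and F (its size over the root of F). The family test had stage as covariate. Alternatives used DESeq2 1.42.0, limma 3.58.1, other filters, scalings and limits, and left out each library. The labels name the same families at every stage, so family pairs the samples. The main stage tests left this pairing out, and an alternative fit took family as a term. Family differences correlated between stages over 9100 features at 0.252 to 0.450. Intervals are exact Poisson or binomial at 95%. Spans are end minus start plus 1. Python 3.11.15 (scipy 1.17.1, pandas 2.3.3, numpy 2.4.6) did the rest.

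Named features were the leading ones by P, by RNA-seq to P ratio, by embryo RNA-seq, by p, by F/P, near the limits, by change between trials, and in the largest groups on a scaffold. Of these groups 4 were taken, as 3 were equal in size. XLOC_027204, XLOC_021229, XLOC_026642, XLOC_020506, XLOC_018320 and the features beside the 81 in the groups were named after their values were seen. Marker lists of adult tissues went unused, as no names were available. The 81 features and the naming rule were chosen with earlier results of these data known.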

Additional observations from a re-analysis of the deposited data

Results flagged for a closer look

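Of 12 values examined over the 7 adult trials, 2 had a single trial far from the others. Chance flags about 1 in 20 groups of unselected values, but these were chosen for a high P or for a large change between trials, so that rate does not apply to them. XLOC_019245 had 7631 CPM in trial 5, against 736 to 2954 CPM in the other 6 trials. XLOC_003999 had 2435 CPM in trial 1, against 144 to 831 in the others. Each trial is a single library of the same RNA pool, and no cause was tested.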

How the results depend on the processing

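The rule found 81 features, 45 with an embryo limit of 0.5 CPM and 38 with F within 2 times P. Limits in each embryo library, P of at least 40 CPM and TMM scaling kept the count within 1.5 times, and leaving out 1 library gave 75 to 85. The calls between stages 8 and 11 in RNA-seq numbered 16 higher and 0 lower. With family as a replicate block 18 were higher and 0 lower, DESeq2 called 13, and no filter 18. Leaving out 1 library gave 10 to 18 higher and 0 to 1 lower, over all features 8292 to 11019 calls against 11348. Between stages 6 and 8, DESeq2 called 79 of all features and none of the 81, and the other alternatives called 0 of all features. Between families the 300 calls over all features became 476 with no filter, 1005 with DESeq2, 472 with limma-voom and 0 with no stage term, and ran from 0 to 1963 on leaving out 1 library, with 0 to 1 call among the 81. The causes were not tested. The family block added XLOC_009045 and XLOC_019246 to the calls between stages 8 and 11 and lost none of the 16. Between stages 6 and 8 that block called none of the 81. The number of features above 4 times the embryo level, at least 1 CPM in adult RNA-seq and at least 5 CPM in trials 1 to 5 stayed within 1.5 times under every alternative run. Depth limits embryo WTTS to about 1 CPM.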
